A study of Mus musculus with 8 samples.

Results

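The comparison described here sets the MMTV-iFGFR1 pools taken after 48 hours of dimerizer against the control pools of the same time. It uses 4 of the 8 arrays in the data and 13070 genes that had a probe set of their own above a filter on low signal. The members were chosen by their labels, not by a measured value. Control mice were littermates without the transgene on an inbred FVB background, and transgenic mice carried MMTV-iFGFR1 on the same background. All were females, 6 weeks old when injected, and both genotypes were injected with the dimerizer, so that the agent itself is shared by the groups and a transgenic group without it is not part of the comparison. Mammary glands were digested with collagenase, cells were stained for Cd11b and sorted, and cells of 3 mice made up each pool. Each genotype had 2 pools at 48 hours. The RNA was amplified in a two-cycle protocol and hybridised to a whole-genome Affymetrix array. The other 4 arrays are control and transgenic pools after 4 weeks of dimerizer, and they enter only as a second time point and through the shared estimate of the spread. For transgenic 4 weeks pool 2 the labels conflict, since its free text mentions non-transgenic animals but title, source and genotype do not, and the latter were followed.

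The inducible receptor consists of the signalling part of fibroblast growth factor receptor 1 (FGFR1) joined to a domain that a synthetic dimerizer can pull together, which starts the signal without a natural ligand. The MMTV promoter drives it in the mammary epithelium, so the sorted macrophages are neighbours of the cells that carry the active receptor. Mammary macrophages lie in the stroma and along the ducts, clear dying cells, remodel matrix and supply cytokines and growth factors to the gland. NF-kB is the transcription factor family through which such cells switch on inflammatory genes, and it also induces its own inhibitors. Cd11b is found on macrophages, but neutrophils, monocytes, NK cells and dendritic cells can carry it as well, so the gate does not separate these.

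The values are MAS5 signals, linear and scaled by the authors to the same trimmed mean on each array. Csf1r and Adgre1 were bright in every pool, and Itgam was dim. Csf1r, the receptor for the growth factor that macrophages depend on, had a signal of 93065 and 80298 in control pools against 68311 and 76618 in transgenic ones. Adgre1, the F4/80 antigen, had 14556 and 12909.8 in control pools against 13483 and 11139.6 in transgenic ones, and Itgam, the gene of Cd11b itself, had 264 and 184 in control pools against 350.2 and 245 in transgenic ones. The pools overlapped for Adgre1 and Itgam. The control and transgenic Csf1r signals did not overlap, but the order of such bright genes depended on the scaling. Of the 103 genes with a mean signal over 30000, 49.5% were lower in both transgenic pools and 3.88% higher, with a median log2 difference of −0.15. After quantile normalization, which gives each array the same distribution of signals, the shares were 13.6% lower and 12.6% higher and the median was 0.01. Dim genes depended on the scaling too. Of the 5431 genes with a mean signal under 300, 19.2% were lower and 13.7% higher, with a median of −0.05. After quantile normalization 14.2% were lower and 18.7% higher, with a median of 0.07. The median signal was 126.9 and 107.6 in control pools against 96.4 and 105.8 in transgenic ones. Shortened RNA raises the 3' signal over the 5' signal of the array's control transcripts, and for actin this ratio was 11.3 and 13.9 in control pools against 6.84 and 11.4 in transgenic ones. The Gapdh ratio was 7.43 and 8.58 in control pools against 7.15 and 7.54 in transgenic ones. The part of RNA quality in the results was not tested.

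Over all genes, the genotypes differed about as much as pools of the same genotype did. The SD of the log2 difference between control pool 2 and control pool 1 was 0.73 over the 13070 genes, and between the transgenic pools it was 0.67. Between transgenic and control it was 0.76 for the pools numbered 1 and 0.63 for those numbered 2. The correlation across genes was 0.937 between the control pools and 0.949 between the transgenic pools, and it lay between 0.932 and 0.953 for the 4 pairs of unlike genotype. Genes are not independent replicates, so no p is given. In limma with Benjamini-Hochberg adjustment, 0 of 13070 genes passed an adjusted p of 0.05 in either direction (0.00% called), and the lowest adjusted p was 0.853. Unadjusted p-values under 0.05 were found for 535 genes (4.09%), with 276 higher (2.11%) and 259 lower (1.98%).

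Because 2 against 2 pools cannot reach a two-sided exact permutation p under 0.333 for a single gene, the results below rest on whether both transgenic pools lay on the same side of both control pools. Such a gene is said to be apart. Of all genes, 18.9% were apart with a higher signal (2474 genes) and 16.1% with a lower signal (2101 genes), and each gene list is set beside these shares. The sign alone was positive for 53.9% of genes and negative for 46.1%. With a log2 difference of at least 1 as well, 280 genes (2.14%) were higher and 406 (3.11%) lower. The median log2 difference over all genes was 0.04. Log2 differences are on the scale of log2(signal + 30.8), which understates the change of dim genes. Where a standard error (SE) is given with them, it is that of limma.

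**Figure D1:**
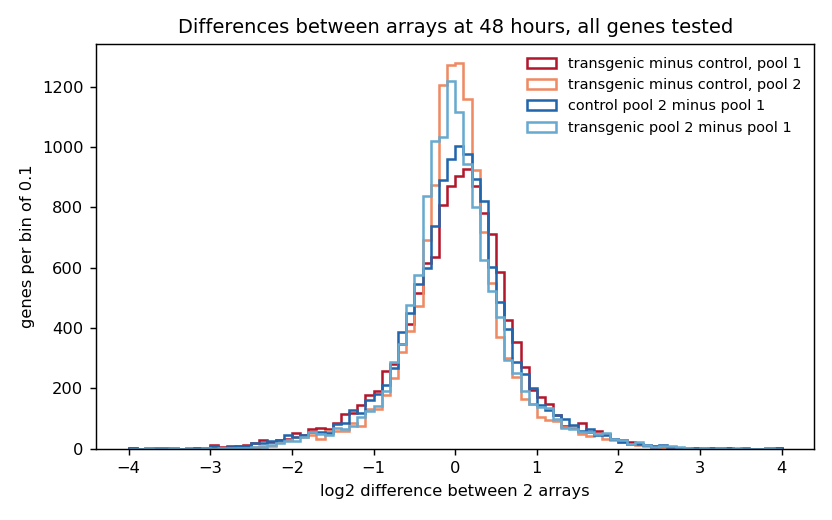
Number of genes (y axis) by the log2 difference between 2 arrays (x axis, values beyond 4 drawn at 4) for the pools of unlike genotype with the same number (red) and for pools of the same genotype (blue), over 13070 genes at 48 hours. The 4 outlines lie over each other, with SDs between 0.63 and 0.76.

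The 63 gene lists, of which 855 of 1024 genes were measured, fell on both sides of 0. The median log2 difference was above 0 for 33 lists. Lists in which many genes were apart with a higher signal were those of luminal epithelium (11 of 16 genes, 68.8%), the tricarboxylic acid cycle (12 of 18, 66.7%), the FGF axis (8 of 14, 57.1%), the respiratory chain (13 of 27, 48.1%) and resident macrophages (6 of 14, 42.9%). Those with many genes apart and lower were NF-kB factors and feedback (10 of 14, 71.4%), the colony stimulating factor axis (6 of 10), ductal macrophages (5 of 10), CXC and CX3C chemokines (6 of 13, 46.2%), the cytosolic ribosome (7 of 16, 43.8%), other cytokines (6 of 14, 42.9%) and costimulation (5 of 12, 41.7%). The ribosomal median was −0.11, and after quantile normalization it was 0.02 with 3 of 16 genes apart and lower. No list was tested as a set, and no member of any list passed limma's adjusted p of 0.05. Genes of a list that work together tend to move together between pools, so these shares do not count independent events.

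**Figure D2:**
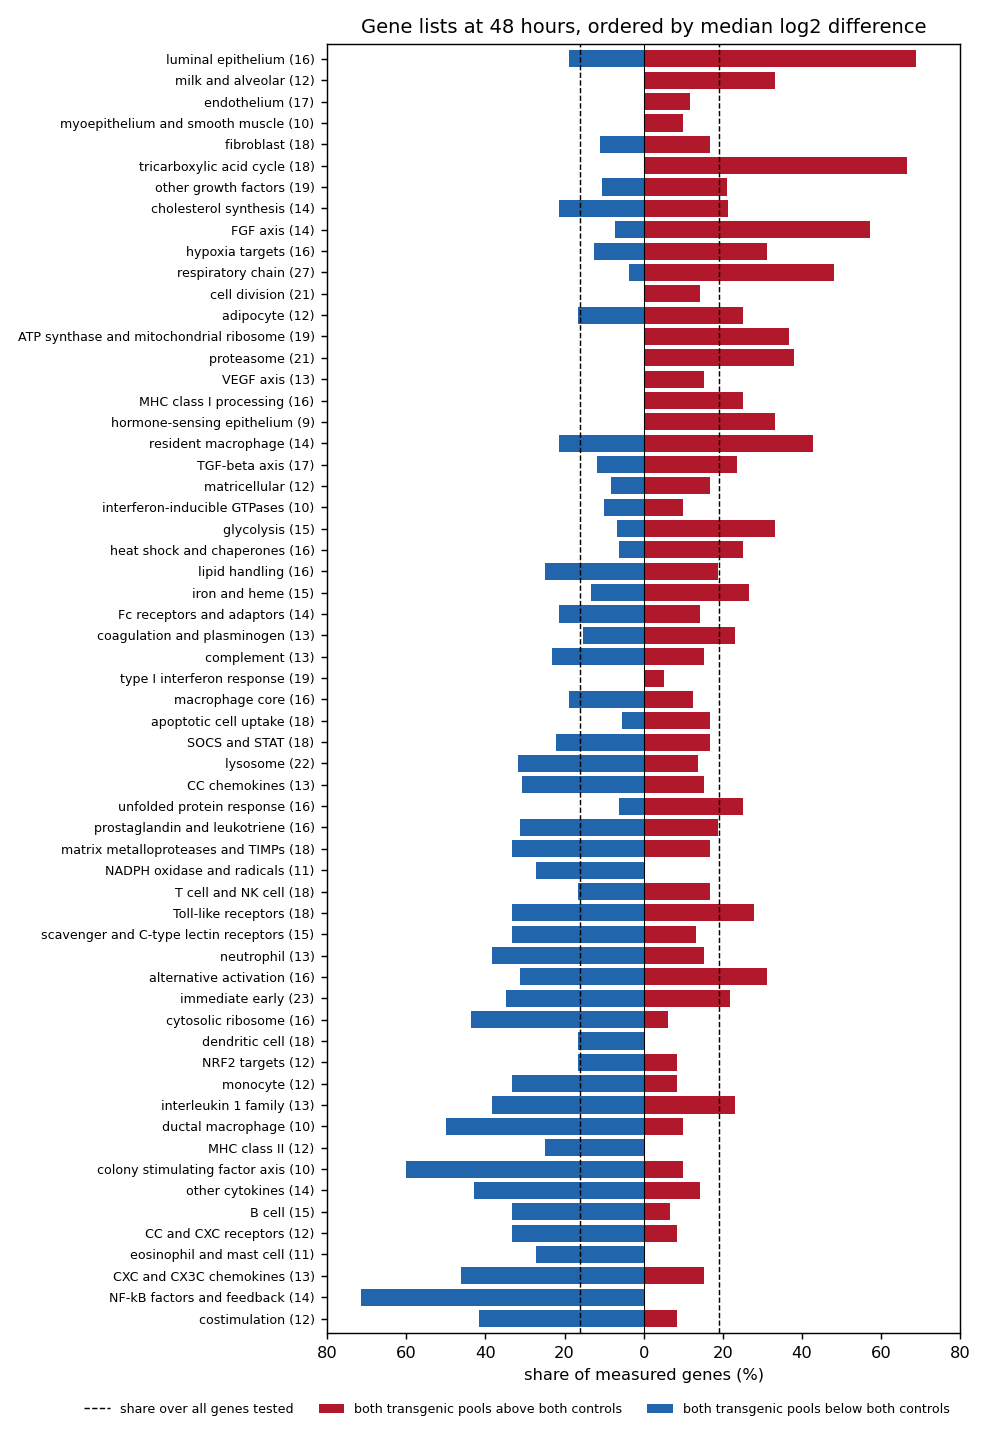
Share of the measured genes of each list (x axis, %) that were apart with a higher (red, right) or lower (blue, left) signal in the transgenic pools at 48 hours, for lists with at least 9 measured genes (number in brackets), ordered by the median log2 difference. Dashed lines mark the shares over all genes, 18.9% and 16.1%. Luminal and tricarboxylic acid cycle genes reach furthest right, and NF-kB and colony stimulating factor genes furthest left.

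NF-kB subunits and their feedback inhibitors had lower signals in the transgenic pools. All 14 measured members had a negative log2 difference, with a median of −0.35, and 10 were apart with a lower signal against 16.1% of all genes. Tnip1, Traf1 and Nfkbie showed the largest differences. Tnip1, which binds the deubiquitinase A20 and restrains NF-kB signalling, had a signal of 2585 and 2081 in control pools against 916 and 1217 in transgenic ones. Both transgenic pools lay below both control pools, and the log2 difference was −1.11 with an SE of 0.29. Nfkbie, the inhibitor IkB-epsilon, had 11408 and 9752 in control pools against 4998 and 5662 in transgenic ones, a log2 difference of −0.98 with an SE of 0.45. Both control pools were far above both transgenic ones, and a further probe set of the gene was also apart and lower, at −0.82. Traf1, an adaptor of TNF family receptors, had 7204 and 4619.8 in control pools against 2929 and 3574 in transgenic ones, a log2 difference of −0.83 with an SE of 0.33. The transgenic pools were lower there too, as they were on a further probe set at −0.51.

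Other members lay closer together. Birc3, an inhibitor of cell death and a ubiquitin ligase of the pathway, had 12184 and 10332 in control pools against 8526 and 7964 in transgenic ones, a log2 difference of −0.44 with an SE of 0.20. Nfkbia, the inhibitor IkB-alpha, had 87357 and 69057 in control pools against 60468 and 65277 in transgenic ones, and Tnfaip3, the A20 enzyme, had 16047 and 17708 in control pools against 12995 and 14816 in transgenic ones. In these 3 genes the groups did not overlap, at log2 differences of −0.31 for Nfkbia and −0.28 for Tnfaip3, both within 2 SE of 0. Further probe sets of Birc3 (0.03) and Tnfaip3 (0.10) overlapped, with the opposite sign. Those of Nfkbia overlapped at −0.33, −0.26 and −0.06, and another at −0.34 was apart and lower. On the probe set used, the nearest control and transgenic pools of Nfkbia differed by only −0.08 in log2. For members not named here that were also apart and lower, they differed by as little as −0.05. The transcription factor subunits differed by less than Tnip1, Nfkbie and Traf1. Rela had a log2 difference of −0.23 with an SE of 0.25 and Nfkb2 of −0.39 with an SE of 0.44, both apart. Rela was barely so, with 2444 in control pool 2 against 2441 in transgenic pool 2. Rel, at −0.49 with an SE of 0.56, and Relb, at −0.14 with an SE of 0.39, overlapped between the groups, as did the inhibitors Nfkbid (−0.09) and Nfkbiz (−0.02). Nfkb1 and Tnip3 had no probe set of their own here. The median was −0.52 within pool 1 (transgenic pool 1 against control pool 1) and −0.14 within pool 2. After quantile normalization, under which 20.4% of all genes were apart and higher and 14.1% lower, 10 members were apart and lower and the median was −0.36, while Nfkbiz turned to 0.09.

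**Figure D3:**
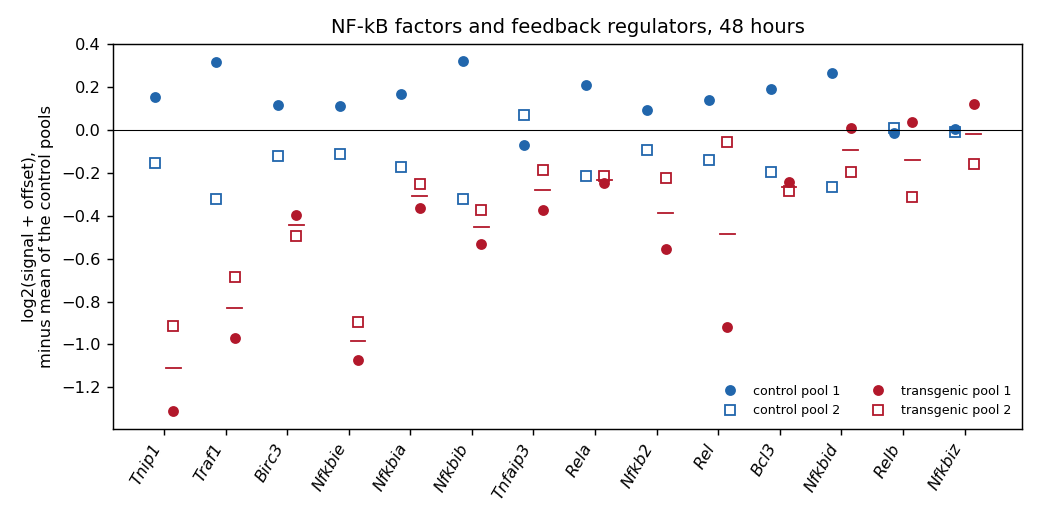
Log2(signal + 30.8) of the 14 measured NF-kB genes in each pool at 48 hours, relative to the mean of the control pools (y axis). Blue marks are control and red marks transgenic pools, circles are pool 1 and squares pool 2, and the red bar is the transgenic mean. Tnip1, Traf1 and Nfkbie lie furthest below 0, and Rel, Nfkbid, Relb and Nfkbiz overlap.

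The upstream sequences of these genes are shown because their list was the one most often apart and lower. RefSeq promoter windows on GRCm38.p6, taken as the 250 bases before a gene's start, were searched on both strands for the NF-kB motif. Of the list, 12 genes had a window, and 7 held the motif, namely Nfkb2, Nfkbia, Nfkbid, Nfkbie, Rel, Tnfaip3 and Tnip1. By window this was 9 of 17 (52.9%), against 7.25% of 32851 windows. Some genes, such as Nfkb2, entered with several windows. The list was defined by its tie to NF-kB, which induces its own inhibitors. A high share is thus a property of the list and does not depend on the array signals. Whether NF-kB bears on the lower signals was not tested. The windows of Nfkbid and Rel, whose pools overlapped, hold the motif too, so the motif does not separate the members that were apart from the others. The motif is printed in capitals in the windows of the 3 inhibitors Tnip1 (chr11:54962941-54963190, minus strand), Nfkbie (chr17:45555450-45555699, plus strand) and Nfkbia (chr12:55492648-55492897, minus strand), 5' to 3' along the gene. In Tnip1, 3 matches overlap each other. The match starts 58 bases before the gene's start in Tnip1, 106 in Nfkbie and 29 in Nfkbia.
Tnip1: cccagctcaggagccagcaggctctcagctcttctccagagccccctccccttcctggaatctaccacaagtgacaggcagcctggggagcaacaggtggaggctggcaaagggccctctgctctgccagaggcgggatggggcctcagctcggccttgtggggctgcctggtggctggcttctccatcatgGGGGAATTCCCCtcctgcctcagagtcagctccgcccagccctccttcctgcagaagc
Nfkbie: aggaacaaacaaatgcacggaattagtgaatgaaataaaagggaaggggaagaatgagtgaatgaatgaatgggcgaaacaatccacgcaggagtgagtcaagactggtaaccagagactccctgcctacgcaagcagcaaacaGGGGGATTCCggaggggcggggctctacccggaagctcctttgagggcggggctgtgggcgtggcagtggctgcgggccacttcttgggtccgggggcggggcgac
Nfkbia: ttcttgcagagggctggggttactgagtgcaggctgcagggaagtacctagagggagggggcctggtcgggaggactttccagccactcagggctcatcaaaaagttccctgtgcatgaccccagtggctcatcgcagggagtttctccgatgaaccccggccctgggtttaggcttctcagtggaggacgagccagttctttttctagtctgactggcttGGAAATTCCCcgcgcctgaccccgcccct

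Several inflammatory genes that NF-kB is known to induce also had lower signals, and whether NF-kB bears on them was not tested. Nlrp3, the sensor of the inflammasome, had 3353 and 2149.6 in control pools against 1545 and 1546 in transgenic ones, a log2 difference of −0.78 with an SE of 0.27. Both transgenic pools were almost equal and below both controls. Il1b had 20223 and 16644 in control pools against 14617 and 12146 in transgenic ones and Il1rn, the receptor antagonist that opposes it, 3754 and 2534 in control pools against 2097 and 1292 in transgenic ones, and neither overlapped between the groups. Casp4, the inflammatory caspase that senses lipopolysaccharide in the cytosol, had a log2 difference of −0.67 with an SE of 0.29. Its nearest control and transgenic pools differed by only −0.09. Of 13 measured genes of the interleukin 1 family, 5 were apart and lower (38.5%) and 3 apart and higher (23.1%), with a median of −0.18, so the list was mixed. The adaptor Pycard was among the higher ones, at 3592 and 3664 in control pools against 4802 and 4223 in transgenic ones.

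Among other cytokines 6 of 14 were apart and lower and 2 apart and higher, with a median of −0.27. Tnf had 3444 and 2189 in control pools against 1402 and 1779.6 in transgenic ones, a log2 difference of −0.79 with an SE of 0.49. Ifnb1, the interferon-beta gene, had 210.5 and 225 in control pools against 89.7 and 86.4 in transgenic ones, and Il12b, a subunit of interleukins that polarise T cells, had 166 and 177 in control pools against 84.2 and 22.1 in transgenic ones. All 4 transgenic values of Ifnb1 and Il12b lay under the controls, at signals low enough that the offset matters. Osm, oncostatin M, went the other way at 1873 and 1599.5 in control pools against 2712 and 2048 in transgenic ones. Il6 overlapped with a positive log2 difference of 0.33, at 4549.5 and 2871 in control pools against 7196 and 2868 in transgenic ones. The anti-inflammatory cytokine Il10 was apart and lower at only −0.24 with an SE of 0.29.

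CXC and CX3C chemokines had a median of −0.32, with 6 of 13 apart and lower, but 3 of the 6 were bright genes. Cxcl1 (−0.32), Cxcl2 (−0.30) and Pf4 (−0.16) all exceeded 30000 in every pool, and after quantile normalization 4 of 13 were apart and lower. Cxcl10, the interferon-inducible chemokine of T cells, was dimmer and had 2759 and 2556 in control pools against 1739 and 2019 in transgenic ones, a log2 difference of −0.50 with an SE of 0.29. Of 13 CC chemokines, 4 were apart and lower (30.8%, against 16.1% of all genes) and 2 higher, with a median of −0.02. Ccl5 had 1684 and 1923 in control pools against 948 and 970.3 in transgenic ones and Ccl3 14072 and 10015 in control pools against 9008 and 9327 in transgenic ones, while Ccl2, the main attractant of monocytes, overlapped at −0.08 with an SE of 0.27. Ccl6 was apart and higher at 32947 and 33544 in control pools against 46663 and 37263 in transgenic ones.

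Costimulatory genes, through which antigen-presenting cells activate T cells, had a median of −0.45 with 11 of 12 negative and 5 apart and lower. Cd86 had 6093 and 6074 in control pools against 3643 and 4623 in transgenic ones, a log2 difference of −0.56 with an SE of 0.30, and Cd40 had 3113 and 2010.5 in control pools against 1495 and 1571 in transgenic ones. Tnfsf4, the ligand OX40L, was dim at 181 and 271 in control pools against 86.9 and 32.1 in transgenic ones. The transgenic pools were lower in all 3, whereas Vsir, a checkpoint ligand, was apart and higher at 0.35 with an SE of 0.20. On a further probe set Cd86 overlapped, at −0.20. MHC class II genes had 10 of 12 negative differences and a median of −0.23, with 3 apart and lower.

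Immediate early genes, which respond to handling and to growth factors within minutes, were mixed. Of 23 genes, 8 were apart and lower and 5 apart and higher, with a median of −0.10. The 3 NR4A nuclear receptors were all lower: Nr4a1 had 12840.3 and 10901 in control pools against 8722 and 9656 in transgenic ones, Nr4a2 13403 and 9559 in control pools against 5419 and 7841 in transgenic ones and Nr4a3 24044 and 24362 in control pools against 14587 and 19585 in transgenic ones. Nr4a2 had the largest of the 3 log2 differences, −0.79 with an SE of 0.27. Fosl1, an AP-1 subunit, was dim at 352 and 158 in control pools against 43.2 and 25.4 in transgenic ones, a log2 difference of −2.06 with an SE of 0.73. Jun and Klf2 were apart in the other direction, with 11765 and 9499 in control pools against 14396 and 12372 in transgenic ones for Jun and 6996 and 5257 in control pools against 8416 and 9155 in transgenic ones for Klf2. The bright genes Fos (−0.16) and Egr1 (0.06) overlapped between the groups.

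Among genes of macrophage states, the list of resident stromal cells had more genes apart and higher than lower, and the list of ductal cells more apart and lower than higher. Lyve1, a hyaluronan receptor of macrophages along vessels and in stroma, had 11000.5 and 14702 in control pools against 28742 and 24791 in transgenic ones. Both transgenic pools were above both controls, the log2 difference was 1.07 with an SE of 0.35, and a further probe set was also apart and higher at 0.65. Lyve1 had the largest difference in linear signal of any gene that was apart with a higher signal. Cd209f, a lectin of resident macrophages, had 7656 and 8040.2 in control pools against 13198 and 10302 in transgenic ones, and Cbr2, a carbonyl reductase, 17941 and 15656 in control pools against 22339.9 and 21397 in transgenic ones. Siglec1, the sialic acid receptor of tissue macrophages, had 53.1 and 160.4 in control pools against 343 and 339 in transgenic ones, but a further probe set of it overlapped at −0.10. Cd5l, an inhibitor of cell death that Kupffer cells and other resident macrophages secrete, had 830.3 and 858 in control pools against 1703 and 1486 in transgenic ones. It belongs to the list of scavenger and C-type lectin receptors, where 2 of 15 genes were apart and higher and 5 lower, with a median of −0.08. Mrc1 and Cd163, the mannose and haemoglobin scavenger receptors, were apart by less, with log2 differences of 0.23 with an SE of 0.17 and 0.12 with an SE of 0.17. Of the resident list 6 of 14 were apart and higher, with a median of 0.16, and 3 were lower. Those 3, Retnla, Selenop and Pf4, all had signals over 30000, and after quantile normalization 7 were higher and 0 lower.

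Of the ductal macrophage list, 5 of 10 were apart and lower with a median of −0.20. That median was −0.55 within pool 1 and −0.05 within pool 2, and after quantile normalization it was −0.09 with 5 genes apart and lower. Cx3cr1, the fractalkine receptor that marks macrophages along the ducts, had 3088 and 2400.1 in control pools against 1692 and 1732 in transgenic ones, a log2 difference of −0.66 with an SE of 0.29. The transgenic pools were close to each other and below the controls, though a probe set of the gene that failed the filter was apart the other way with signals of at most 58.3. Itgax, the integrin CD11c, had 1354 and 928 in control pools against 814 and 840.4 in transgenic ones, and the tetraspanin Cd9 had 1247 and 1192 in control pools against 789.7 and 919.8 in transgenic ones. Cadm1, an adhesion molecule, had 915 and 768 in control pools against 621 and 656 in transgenic ones. Apoe overlapped, at −0.20 with an SE of 0.22, and Mmp12, the macrophage elastase, was apart and higher at 186 and 113 in control pools against 208 and 217 in transgenic ones.

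The colony stimulating factor axis, which keeps macrophages alive and sets their number, had 9 of 10 negative differences, a median of −0.24 and 6 genes apart and lower. The ligand Csf1 had 648 and 779 in control pools against 278 and 524 in transgenic ones, a log2 difference of −0.84 with an SE of 0.40. The groups did not overlap on the probe set used, but they did on both of its other probe sets above the filter. Runx1, a transcription factor of myeloid development, had 3780.2 and 2737 in control pools against 1759.6 and 2297 in transgenic ones, a log2 difference of −0.67 with an SE of 0.25, and 3 of its 5 other probe sets were apart and lower. The shared receptor chain Csf2rb had 6684 and 7587 in control pools against 5595 and 5908 in transgenic ones. Klf4, a monocyte and macrophage factor, was apart and higher at 37353 and 32359 in control pools against 41217 and 39039.5 in transgenic ones.

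Genes of mitochondrial metabolism had higher signals, each by a small amount. Of 18 measured genes of the tricarboxylic acid cycle, 12 were apart and higher and 0 lower, with a median of 0.35. The median was 0.46 within pool 1 and 0.22 within pool 2. Idh3a, the catalytic subunit of the NAD-linked isocitrate dehydrogenase, had 1018 and 1092 in control pools against 2108 and 1526 in transgenic ones, a log2 difference of 0.75 with an SE of 0.30. The transgenic pools were above the controls, as on 2 of its 3 other probe sets. Sucla2 and Suclg2, subunits of the enzymes that cleave succinyl-CoA, had 3178 and 4742 in control pools against 5472 and 5511 in transgenic ones for Sucla2 and 1107 and 1616 in control pools against 1989 and 1798 in transgenic ones for Suclg2. Fh1, fumarase, had 7801 and 6875 in control pools against 10939.8 and 8866 in transgenic ones. Of the list, 2 genes had an unadjusted limma p under 0.05.

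In the respiratory chain 13 of 27 genes were apart and higher and 1 lower, with a median of 0.23. Cox5a, a subunit of cytochrome oxidase, had 20792 and 27711 in control pools against 33890.2 and 28355 in transgenic ones, and Cycs, cytochrome c itself, 13684 and 14799.5 in control pools against 18882 and 16241 in transgenic ones. The lowest transgenic and the highest control signal of Cox5a were close together. All 19 genes of the ATP synthase and the mitochondrial ribosome had a positive difference, with a median of 0.20 and 7 apart and higher. Of the proteasome, the complex that degrades ubiquitinated proteins, 20 of 21 genes had a positive difference, 8 were apart and higher and the median was 0.20. Psma5, a subunit of its core, had 9704 and 11516 in control pools against 14176 and 12520.1 in transgenic ones. In each of these 4 lists the median was larger within pool 1 than within pool 2. It was 0.36 and 0.06 in the respiratory chain, and 0.32 and 0.05 in the proteasome. After quantile normalization 12, 13, 10 and 8 genes were apart and higher in the 4 lists, in the order given here.

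Glycolysis showed 5 of 15 genes apart and higher, with a median of 0.14. Tpi1, triosephosphate isomerase, had 1874 and 3336 in control pools against 5145 and 4047 in transgenic ones, a log2 difference of 0.86 with an SE of 0.30, and Ldha, lactate dehydrogenase, had 5016 and 5570.5 in control pools against 8786 and 6642 in transgenic ones. Hk2, hexokinase 2, overlapped at −0.22 with an SE of 0.25. Of the unfolded protein response, Creld2, a chaperone-like protein of the endoplasmic reticulum, had 1252 and 1759 in control pools against 2893 and 2437 in transgenic ones, a log2 difference of 0.83 with an SE of 0.29, in a list with a median of −0.03. Of 19 type I interferon response genes, 1 was apart and higher (5.26%) and 0 lower, both under the shares of all genes, with a median of 0.06. It was 0.53 within pool 1 and −0.38 within pool 2. Cell division genes behaved alike, with a median of 0.23 that was 1.03 within pool 1 and −0.67 within pool 2. Of 21 measured, 3 were apart and higher (14.3%, under the 18.9% of all genes) and 0 lower. Ccne1, cyclin E1, and Birc5, survivin, were apart and higher, at 228 and 1005 in control pools against 1975 and 1672 in transgenic ones for Ccne1 and 256 and 348 in control pools against 774 and 498 in transgenic ones for Birc5. Control pool 1 was the lowest for both.

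Of the FGF axis, 14 of 21 genes were measured, 12 had a positive difference and 8 were apart and higher, with a median of 0.26 that was 0.28 in both pairs of pools. Of the 8, 5 are a transcription factor and inhibitors that FGF signalling is known to induce. Whether FGF signalling bears on their signals was not tested. Etv5, an ETS factor downstream of FGF receptors, had 342 and 251 in control pools against 694 and 454 in transgenic ones, a log2 difference of 0.87 with an SE of 0.35. Its 2 other probe sets failed the filter and were apart the other way. Dusp6, the phosphatase that dampens ERK, had 619 and 1113 in control pools against 1642 and 1226 in transgenic ones, and Spry1, a Sprouty inhibitor, had 559.5 and 649 in control pools against 763 and 992 in transgenic ones. For both the transgenic pools were above the controls, with log2 differences of 0.75 and 0.51. Of the ligands, Fgf9 had 1145 and 973 in control pools against 1639 and 1530.4 in transgenic ones and Fgf7 147 and 149 in control pools against 257 and 172 in transgenic ones, but each overlapped on a further probe set with the opposite sign, at −0.24 for Fgf9 and −0.32 for Fgf7. Of the receptors, Fgfr4 was apart and lower at 203 and 229 in control pools against 58.2 and 85.0 in transgenic ones, a log2 difference of −1.28 with an SE of 0.41, and Fgfr2 overlapped. Fgfr1 was apart by little, 1132 and 1131 in control pools against 1234 and 1150.2 in transgenic ones, a log2 difference of 0.07 with an SE of 0.43. Of its 2 other probe sets above the filter, 1 was apart and higher at 0.52 and 1 overlapped at −0.15. Whether RNA of the transgene is part of any Fgfr1 signal was not tested.

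Among other growth factors, Ptn, pleiotrophin, stood out with 336 and 573 in control pools against 1215 and 1792 in transgenic ones. Both transgenic pools were at least 1.05 above both controls on the log2 scale, the difference was 1.68 with an SE of 0.31, and 1 of its 2 other probe sets was apart and higher. Pdgfc, a ligand of platelet-derived growth factor receptors, had 4724 and 5566 in control pools against 8747 and 7033 in transgenic ones, while Pdgfb, a ligand of the same family, had 534 and 477 in control pools against 278 and 272 in transgenic ones. Vegfa had 504 and 148 in control pools against 618 and 742 in transgenic ones, with control pool 2 far below the other 3. Igf1 was apart and higher at 0.27 with an SE of 0.22. The list of other growth factors had 4 of 19 apart and higher (21.1%) and 2 lower (10.5%), near the background. The VEGF axis, a separate list, had 2 of 13 apart and higher (15.4%) and 0 lower.

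Epithelial genes were among those with the largest differences towards a higher signal. Cells of the duct lining are not part of the Cd11b gate, and in such bulk samples more cells of a type and more RNA per cell cannot be told apart. Csn3, the milk protein kappa-casein, had 855 and 974 in control pools against 6146 and 7000.3 in transgenic ones, a log2 difference of 2.80 with an SE of 0.49. With the 48 hours arrays fitted alone it had limma's adjusted p = 0.00952, the only gene to pass there (0.00765% of genes, with 5.05% at an unadjusted p under 0.05), and 0.853 in the fit over all arrays. Its other probe set had signals of at most 42 and overlapped. Krt8 and its partner Krt18, the keratins of luminal cells, were apart on 625 and 702 in control pools against 2747 and 3692 in transgenic ones for Krt8 and 513 and 392 in control pools against 1103 and 1129.6 in transgenic ones for Krt18. All 3 probe sets of Krt8 were apart and higher, with log2 differences of 1.94 to 2.44. Krt19, another luminal keratin, had 189.5 and 235 in control pools against 917 and 948 in transgenic ones, and Prom1, a membrane protein of luminal cells, 118 and 164 in control pools against 323 and 678 in transgenic ones. Elf5, the alveolar transcription factor, had 7.40 and 85.8 in control pools against 231 and 218 in transgenic ones, with both transgenic pools far above both controls.

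Of 20 luminal markers, 16 were measured. The sum of their signals was 5468 and 5550.3 in control pools against 13404 and 14603 in transgenic ones, and 11 were apart and higher. The list was not uniform. Cldn3, a tight junction protein, had 77.2 and 209.7 in control pools against 38.4 and 16.4 in transgenic ones and the epithelial factor Elf3 324 and 252 in control pools against 184 and 156 in transgenic ones, both apart and lower, although Cldn3 overlapped on other probe sets at 0.56 and 0.63, and Cldn4 and Spint1 overlapped with negative differences. Of the others, Cldn7, Gata3 and Muc1 reached at most 117.5, 40.8 and 41.5 in any pool. The median was 0.91, with 0.60 within pool 1 and 1.12 within pool 2. Of 9 measured hormone-sensing genes, 3 were apart and higher: the progesterone receptor Pgr, with 90.3 and 132 in control pools against 421 and 623 in transgenic ones, the pioneer factor Foxa1, with 177 and 309 in control pools against 449.8 and 557 in transgenic ones, and the coactivator Cited4, with 22.8 and 37.2 in control pools against 105 and 136 in transgenic ones. The oestrogen receptor Esr1 overlapped, at 0.17 with an SE of 0.26. Of 12 milk and alveolar genes, 4 were apart and higher, and their median of 0.40 was 1.32 within pool 1 and 0.09 within pool 2. The part of these epithelial transcripts in the other differences was not tested.

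**Figure D4:**
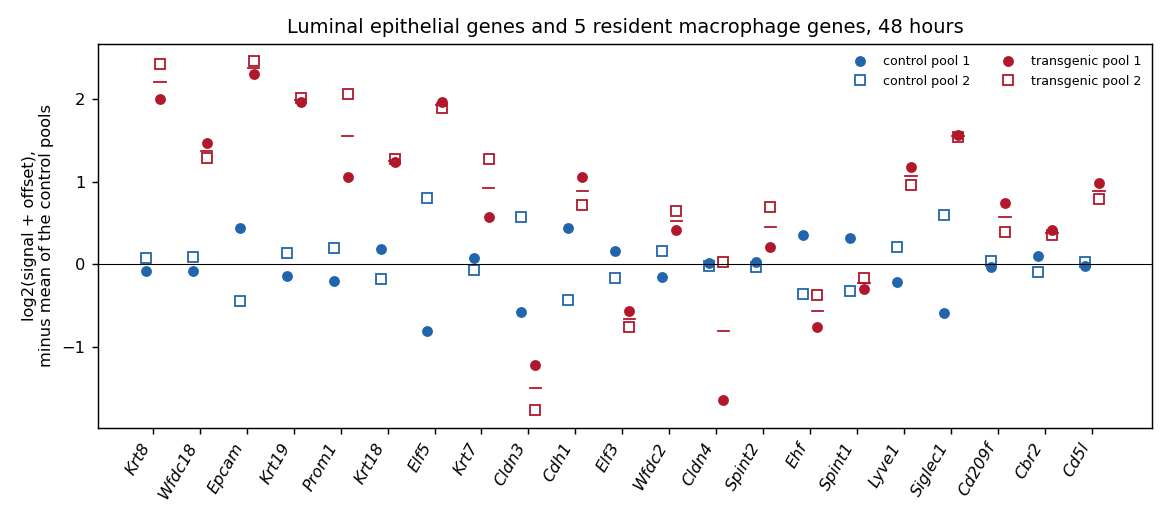
Log2(signal + 30.8) of the 16 measured luminal epithelial genes (Krt8 to Spint1) and of 5 macrophage genes (Lyve1 to Cd5l) in each pool at 48 hours, relative to the mean of the control pools (y axis). Blue marks are control and red marks transgenic pools, circles are pool 1 and squares pool 2, and the red bar is the transgenic mean. Red marks lie above both blue marks for 11 luminal genes and below both for Cldn3, Elf3 and Ehf.

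Markers of other cells the gate could hold differed too, with 0 past limma's adjusted p of 0.05. Neutrophil genes had a summed signal of 17005 and 18993 in control pools against 12100 and 12221 in transgenic ones. Of 13 measured markers, 5 were apart and lower and 2 higher. Differences were negative for 10 of the 13, but their median was only −0.09. Most of the drop in the sum came from S100a8 and S100a9, so it does not describe the typical marker. S100a8 and S100a9, the subunits of calprotectin, had 6377 and 7909 in control pools against 2779 and 3336 in transgenic ones for S100a8 and 2506 and 3041 in control pools against 1075 and 1162 in transgenic ones for S100a9. Both were lower by more than 1 on the log2 scale (−1.21 and −1.28), and Ngp, a granule protein of neutrophil precursors, was lower too, at 639 and 1051 in control pools against 429.5 and 268 in transgenic ones. The 2 higher ones, Lcn2 and Ltf, are also made by mammary epithelium. They had 269 and 261 in control pools against 913 and 699.7 in transgenic ones for Lcn2 and 277 and 331 in control pools against 619.8 and 866 in transgenic ones for Ltf. Ly6g, which defines mouse neutrophils, had no probe set of its own here. Whether the neutrophil share bears on the lower inflammatory genes was not tested.

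Stromal lists differed between pools of the same genotype. Endothelial genes summed to 4659.8 and 5739 in control pools but 4289.5 and 12229 in transgenic pools, and their median was −0.14 within pool 1 and 0.93 within pool 2. Fibroblast genes summed to 45959 and 100357 in control pools against 85031 and 90857 in transgenic ones, and 3 of 18 were apart and higher and 2 lower. Smooth muscle genes summed to 5363 and 7407 in control pools against 4979 and 11431 in transgenic ones. In each of these lists 1 pool stood out against its own genotype, and the shares of genes apart were near or under the background. Dendritic cell genes had 3 of 18 apart and lower (16.7%), near the 16.1% of all genes, with a median of −0.12. B cell genes had 5 of 15 apart and lower (33.3%), with a median of −0.28. After quantile normalization these counts were 4 of 18 (22.2%) and 3 of 15 (20%), beside 14.1% of all genes.

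The genes with the widest gap between the pools were taken as 15 in each direction among genes with both pools of the higher group at a signal of at least 200. Of the higher 15, Csn3, Krt8, Epcam, Krt19, Pgr and Lalba are epithelial products, and Lcn2 is made by neutrophils as well as epithelium. Others have more general roles. Rundc3a, known from neurons, had 62.7 and 68.0 in control pools against 213 and 229 in transgenic ones, and Gga1, an adaptor of vesicle transport, 85.8 and 94.9 in control pools against 280.4 and 273 in transgenic ones. Vps33b, a factor of vesicle fusion, had 63.3 and 61.5 in control pools against 335 and 312 in transgenic ones. In all 3 the control pools were close together and the transgenic ones far above them. Of the lower 15, Lor and Lce1i are structural proteins of the skin's cornified layer, with 896 and 429 in control pools against 133 and 138 in transgenic ones for Lor and 1028 and 645 in control pools against 132 and 202 in transgenic ones for Lce1i. A keratin was also among the lower 15, with 321.7 and 221.4 in control pools against 18.7 and 29.7 in transgenic ones. Adamdec1, a metalloprotease of macrophages and dendritic cells, had 469 and 876 in control pools against 96.5 and 157 in transgenic ones, and Smo, the Hedgehog transducer, 591 and 866 in control pools against 151 and 231 in transgenic ones. Pla2g6, a calcium-independent phospholipase, had 3682 and 2543 in control pools against 174 and 974 in transgenic ones, so that its transgenic pools also differed widely from each other.

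Other probe sets of these 30 genes repeated few of the differences. Of the 30 genes, 8 had another probe set above the filter, 9 in all, of which 3 were apart in the same direction and 5 had the same sign. The 3 belong to Krt8 and Epcam, so that no lower gene was repeated. Smo and Lor were apart and higher on another probe set, at 0.30 and 0.54, and Pla2g6 overlapped, at −0.04. For 14 of the 30 genes the array has no other probe set. Over all 5690 genes with a second probe set above the filter, the second was apart and higher in 16.7% and apart and lower in 18.3%. Where the first was apart and higher, the second was so in 25.6% of 1162 genes and apart and lower in 11.8%. Where the first was apart and lower, these shares were 8.83% and 29.9% of 872 genes. Of the genes named here, 109 were apart and 49 of them had another probe set above the filter, 76 in all. Of the 76, 34 were apart in the same direction, 40 overlapped and 2 were apart in the opposite direction. The sign was the opposite on at least 1 other probe set for 16 genes: Birc3, Cadm1, Cldn3, Csf1r, Fgf7, Fgf9, Fgfr1, Fgfr4, Idh3a, Igf1, Lor, Pdgfb, Ptn, Siglec1, Smo and Tnfaip3. Probe sets of a gene share the RNA of a pool, so they check the probes and not the biology.

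Set against 4 weeks, the genes apart at 48 hours were apart at 4 weeks about as often as any other gene. Of the 2474 higher at 48 hours, 15.2% were apart and higher at 4 weeks and 17.0% apart and lower, beside 14.6% and 17.2% of all genes. Of the 2101 lower at 48 hours, 14.1% were higher and 17.1% lower. The arrays of the 2 times share no pools. In the test of the difference between the times, 0 of 13070 genes passed limma's adjusted p of 0.05 (0.00% called), the lowest adjusted p was 0.19, and 616 genes (4.71%) had an unadjusted p under 0.05. The 5 genes with the smallest p were Zdhhc12, Ltf, Tpst1, Med18 and F5.

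Cx3cr1 was apart in opposite directions at the times. It was lower in transgenic pools at 48 hours by the values above, and at 4 weeks it had 539.9 ± 72.6 in control and 1909 ± 706 in transgenic pools (SD, n = 2). Its log2 difference was −0.66 at 48 hours and 1.72 at 4 weeks, and the difference between these had limma's adjusted p = 0.366. F5, coagulation factor V, which macrophages can make, had 5244 and 7843 in control pools against 3608 and 3913 in transgenic ones at 48 hours, and both of its probe sets were apart and lower. Its log2 difference was −0.77 at 48 hours and 1.41 at 4 weeks. Tpst1, which adds sulfate to tyrosines of secreted proteins and chemokine receptors, had 506 and 504 in control pools against 1168 and 1075 in transgenic ones, with log2 differences of 1.10 and −1.21. Zdhhc12, a palmitoyl transferase, had 109 and 56.0 in control pools against 387 and 314 in transgenic ones, with 1.78 and −2.53. Among epithelial genes, Pgr had a mean signal of 111 in control and 522 in transgenic pools at 48 hours and 594 and 325 at 4 weeks, and its log2 difference was 1.95 at 48 hours and −0.88 at 4 weeks. The control mean of Pgr was the one that differed most between the times.

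**Figure D5:**
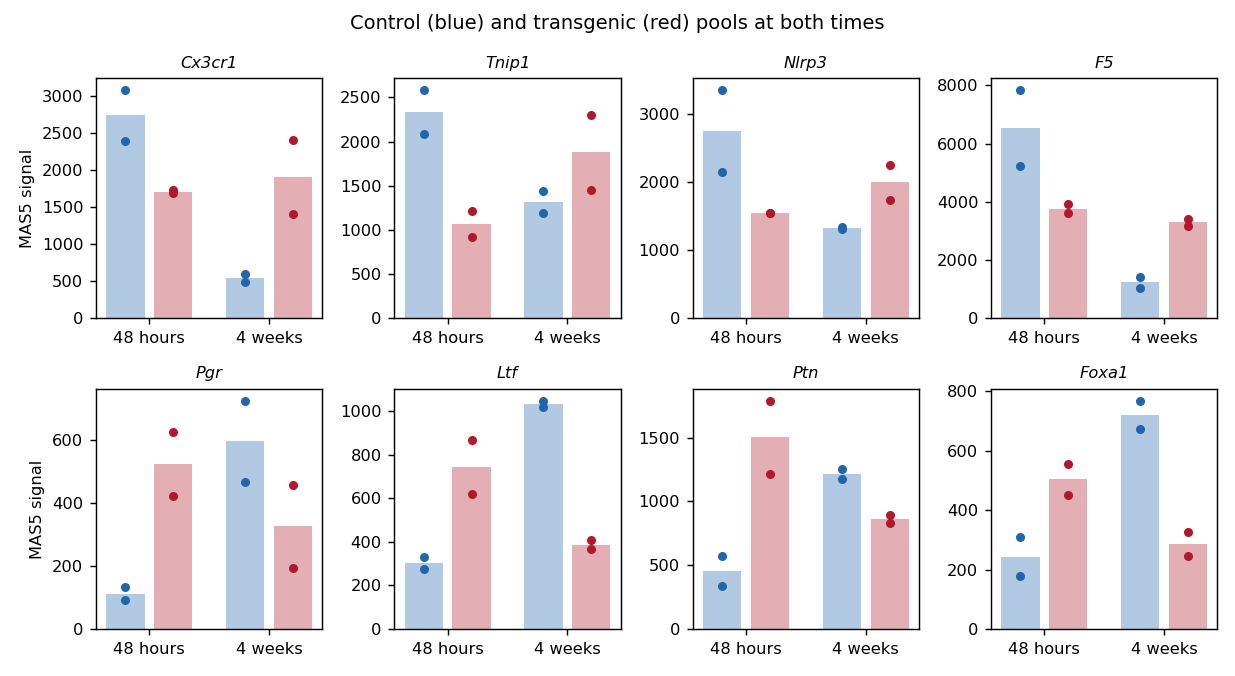
MAS5 signal (y axis, linear, from 0) of 8 genes in control (blue) and transgenic (red) pools after 48 hours and 4 weeks of dimerizer. Points are the 2 pools of each group and bars their mean. In all 8 genes the pools of the genotypes do not overlap at either time, and the order of the genotypes at 48 hours is the opposite of that at 4 weeks.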

How the data were processed

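Gene expression was measured on 8 one-colour Affymetrix arrays, of which the 4 of 48 hours form the comparison. The submitters' processing notes name MAS5 as the method by which the authors obtained the deposited signal intensities, 1 for each probe set. They are linear, from 0.3 to 159546.7, and no detection calls were used, so a dim signal cannot be told from absence. Of 45101 probe sets, 34958 carried 1 gene symbol, 932 several and 9160 none, and symbols were updated through Entrez ID to RefSeq. The offset 30.8, the lower quartile of all values, was added before taking log2. Probe sets brighter than the array's median on 2 or more of the 8 arrays were kept, and the one with the highest mean stood for the gene.

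The test was that of limma 3.58.1 under R 4.3.3 (1 mean per group over the 8 arrays, eBayes with a trend, two-sided, Benjamini-Hochberg over 13070 genes), leaving 4 residual degrees of freedom. Python 3.11.15 and matplotlib 3.10.9 served for the figures and promoter search. The number of arrays limits the precision. Replicates are pools of 3 mice, so p-values measure the spread between pools. The code was tested on simulated data.

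The comparison and the gene lists, written from textbook knowledge, were chosen with earlier results of these data known. Genes were named by a rule: the 15 with the widest gap in each direction, up to 5 of each list by p and 3 by signal (all of lists under 16 genes), the brightest genes and those with the largest linear difference, and the 5 with the smallest p for the difference between times. Adgre1, Cldn3, Cldn4, Ehf, Elf3, Elf5, Jun, Klf2, Nr4a3 and Spint1 fall outside it and were chosen after their values were seen, and many genes the rule allows were left out for length. The alternatives were quantile normalization, other offsets and filters, the mean of a gene's probe sets, no trend, weights per array, a block for pool number, the 48 hours arrays alone, other thresholds, and leaving out each pool.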

Additional observations from a re-analysis of the deposited data

Results flagged for a closer look

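Of the genes named above, 24 were apart in opposite directions at 48 hours and 4 weeks, each with both transgenic pools on the same side of both controls. Of all genes, 717 (5.49%) were so, but 109 of the named genes were already apart at 48 hours. Of all genes apart and higher at 48 hours, 17.0% were apart and lower at 4 weeks. Of those apart and lower at 48 hours, 14.1% were apart and higher at 4 weeks. Zdhhc12, Ltf, Tpst1, Med18 and F5 were named for the small p of this same difference. The count of 24 thus follows in part from how the genes were chosen. The values here are the log2 genotype difference at 48 hours minus that at 4 weeks, and in limma with Benjamini-Hochberg adjustment 0 of them passed an adjusted p of 0.05. Higher at 48 hours and lower at 4 weeks were 9 genes. The epithelial genes among them were Pgr at 2.84, Prom1 at 2.57 and Foxa1 at 2.25. Ltf, made by neutrophils as well as epithelium, was at 2.54. The others were Zdhhc12 at 4.32, Tpst1 at 2.31, Ptn at 2.16, Psma5 at 0.54 and Cd163 at 0.33. Lower at 48 hours and higher at 4 weeks were 15 genes. Of macrophage state and growth factor genes these were Cx3cr1 at −2.38, Itgax at −1.61, Cd9 at −1.17, Csf2rb at −1.01 and Runx1 at −0.92. Of inflammatory and immediate early genes they were Fosl1 at −3.37, Ifnb1 at −1.59, Tnip1 at −1.58, Nlrp3 at −1.35, Nr4a2 at −1.31, Il1b at −1.29 and Nr4a1 at −0.82. The remaining ones were Med18 at −2.93, F5 at −2.17 and Fgfr4 at −1.94. Control 4 weeks pool 2 had an actin 3' to 5' ratio of 37.0, the highest of the 8 arrays, and it enters every one of these values.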

How the results depend on the processing

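In limma 0 genes were called at 48 hours under every setting run except the 48 hours arrays alone and the fits without a control 4 weeks pool, which called 1 gene each, Csn3. The range without 1 pool was 0 to 1. Unadjusted p-values under 0.05 were found for 535. The difference between the times gave 0 to 1 genes without 1 pool, the 1 being Nrip2 without transgenic 48 hours pool 2. With no filter (18193 genes) 3070 were apart and higher and 3247 lower, and with a filter at the 75th percentile (7442 genes) 1715 and 1010. Which direction has more genes thus depends on the filter, and the cause was not tested. The latter filter kept 15 of the 30 genes with the widest gap. Without 1 pool, where 2 pools need only clear 1, 4351 to 5148 genes were apart and higher and 3961 to 4425 lower. With pool number as a replicate block 0 genes were called, the lowest adjusted p being 0.495. Deviations of pools with the same number correlated at 0.02 at 48 hours, so the main fit did not pair pools by number. The medians within pool 1 and within pool 2 do pair them so. The labels do not say what the number marks, and other pairings are equally possible. The medians above 0 numbered 31 of 63 lists within pool 1 and 30 within pool 2.

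Of 124 of the named genes, quantile normalization reversed Fos (0.039), Nfkbiz (0.087) and Selenop (0.029), and the cause was not tested. Without 1 pool, some log2 differences changed sign, over these ranges: Apoe −0.56 to 0.15, Ccl2 −0.39 to 0.22, Cldn4 −1.65 to 0.028, Egr1 −0.14 to 0.27, Fgfr2 −0.25 to 0.48, Nfkbid −0.36 to 0.17, Nfkbiz −0.16 to 0.12, Relb −0.31 to 0.037 and Spint1 −0.55 to 0.091. The median standard error was 0.57 for genes with a mean signal under 300 and 0.17 for those over 30000, so dim genes are the least certain.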
